A study of Mus musculus with 9 samples.

Results

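The respiratory chain is the set of complexes in the inner mitochondrial membrane that pass electrons from NADH and succinate to oxygen, together with the ATP synthase driven by the resulting proton gradient. Its subunit genes were selected by symbol. Those of the mitochondrial genome begin with mt-Nd, mt-Co, mt-Cytb or mt-Atp, and those of the nucleus begin with Nduf (a, b, c, s and v series), Sdh (a to d), Uqcr, Cyc1, Cox4 to Cox8 or Atp5. The selection gave 98 of the 18188 genes listed in each library, 13 mitochondrially encoded and 85 nuclear. Of these, 92 passed the filter on low values (4 or more libraries with a TPM of 1 or higher), namely all 13 mitochondrial genes and 79 nuclear genes.

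Transcripts were measured by poly(A) RNA sequencing of CD8+ T cells of the mouse spleen, which are the cytotoxic lymphocytes that attack infected cells and tumours. The series held 5 wild-type libraries (WT) and 4 libraries labelled as a knockout of Rig1 (Rig1 KO), the gene for the cytosolic viral RNA sensor RIG-I. The title of the study describes RIG-I as a checkpoint that restrains tumour control by T cells, and the comparison here asks how subunit transcripts differ between the genotypes. Strain, age, any treatment of the animals, the way the knockout was made, the cells in which it acts and the way the T cells were purified were not stated in the labels. Separate animals are not named in the labels. The p-values therefore reflect the spread among libraries alone, and that spread may be technical.

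Complex I oxidises NADH and complex II oxidises succinate, and both reduce ubiquinone. Complex III passes the electrons to cytochrome c, complex IV passes them to oxygen, and complex V, the ATP synthase, makes ATP as protons flow back. Complexes I, III, IV and V are built from subunits of both genomes, whereas all subunits of complex II are nuclear, and T cells raise mitochondrial mass and respiration when they are activated and when they form memory cells.

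The knocked-out gene, called Ddx58 in the files, stood at 63.9, 67.4, 67.1, 63.8 and 63.2 TPM in WT 1 to 5 and at 32.8, 30.6, 35.2 and 34.5 TPM in Rig1 KO 1 to 4, with no overlap (log2 fold change -0.95, SE 0.055, adjusted p = 4.91e-07). Transcripts of the gene were still counted in every library labelled Rig1 KO. The 6 measured CD8 T cell markers summed to between 3232 and 3768 TPM in WT and between 4547 and 5115 TPM in Rig1 KO. The reads recovered from the TPM values came to between 15496262 and 17893558 per library, and each of the 26 members described below as changed rested on at least 123 reads in every library. The lengths used for TPM span introns as well as exons. Levels of different genes are therefore set side by side only on TPM recomputed with exon lengths, and each such value is called exon-length TPM. It rests on the same recovered reads, and whether these include reads that lie in introns was not tested. Any such reads would raise the exon-length TPM of genes with long introns. Orders of genes and the ratio of mitochondrial to nuclear members on exon-length TPM are uncertain to that extent.

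Libraries Rig1 KO 3 and Rig1 KO 4 stood apart from the other 7 in their short transcripts. Among 127 protein-coding genes outside the chain whose longest transcript is at most 700 nt, the median log2 deviation from the WT mean, taken relative to all tested genes, was -0.47 in Rig1 KO 3 and -0.31 in Rig1 KO 4. It lay between -0.088 and 0.054 in the other 7 libraries. The 17 nuclear chain members of that length stood at -0.64 in Rig1 KO 3 and -0.38 in Rig1 KO 4, against -0.041 to 0.069 elsewhere. Even the 26 nuclear members with transcripts over 1500 nt were at -0.13 in Rig1 KO 3 and -0.14 in Rig1 KO 4, while genes outside the chain of 1501 to 2500 nt were at -0.012 and 0.0074. Rig1 KO 3 was the lowest of the 9 libraries for 32 of the 79 nuclear members tested. Results are therefore given with and without these libraries, and the part that this feature has in any single fall was not tested.

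**Figure D1:**
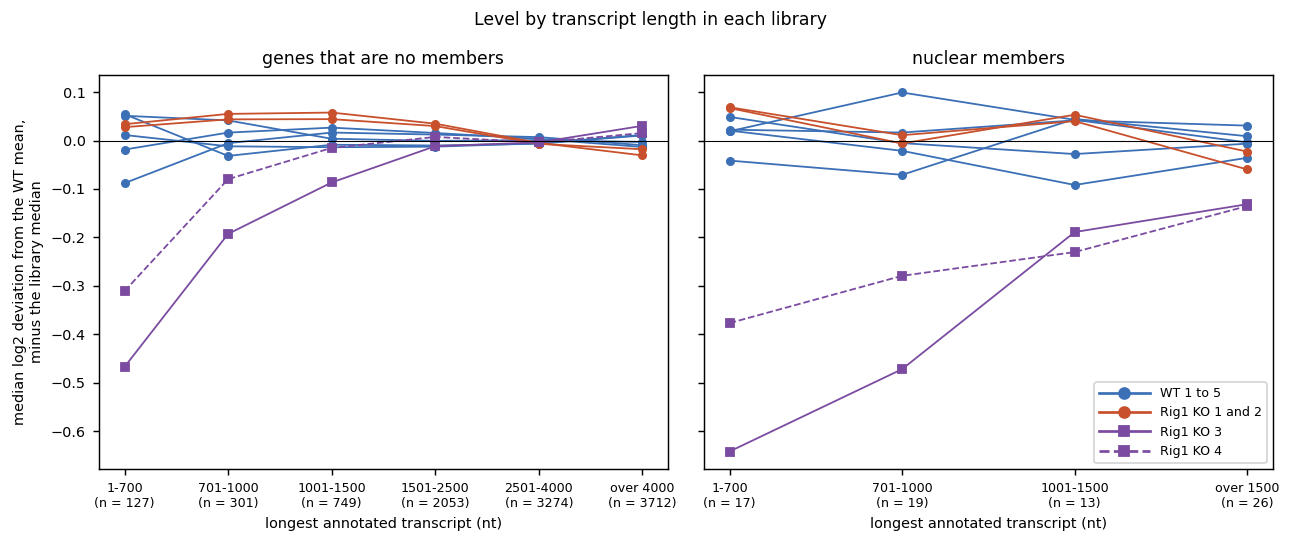
Median log2 deviation from the WT mean (vertical axis, relative to the median of all tested genes in the same library) by length of the longest annotated transcript (horizontal axis, nt), for genes outside the chain (left) and nuclear members (right), with 1 line per library. In the shortest bin Rig1 KO 3 and 4 lie at -0.47 and -0.31 for other genes and at -0.64 and -0.38 for the members.

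Subunit transcripts of the chain moved in both directions. Of the 92 members tested, 12 were higher in Rig1 KO and 14 were lower (limma on log2(TPM + 1), Benjamini-Hochberg adjusted p below 0.05 over all tested genes), and 66 did not pass. Over the 10540 genes tested, 45.7% passed, with 33.5% higher and 12.2% lower. Among members the corresponding shares were 28.3%, 13.04% and 15.2%. The median log2 fold change (Rig1 KO minus WT throughout) was 0.014 over the members and 0.13 over all tested genes. With median ratio scaling, which brings the median of all genes to 0.013, 7 members were higher and 20 lower, against 23.7% and 21.4% of all genes, and the members' median was -0.10.

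Without Rig1 KO 3 and 4, 17 members were higher and 10 lower, where 20.5% and 13.1% of all genes were. That comparison kept 8 of the 12 rises and 10 of the 14 falls. Without Rig1 KO 1 and 2, 12 members were higher and 29 lower, where 36.3% and 9.38% of all genes were. It kept 9 of the 12 rises and all 14 falls. Both comparisons use the same 5 WT libraries and are not independent. With the level of short transcripts as a covariate, 18 members were higher and 11 lower (25.4% and 14.3% of all genes), and 9 of the 12 rises and 11 of the 14 falls kept their call. The falls that did not pass without Rig1 KO 3 and 4 were those of Atp5g1, Cox7a2l, Uqcr10 and Uqcrh. The rises that did not pass without them were those of Atp5pb, Ndufv1, Sdhb and mt-Atp6.

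**Figure D2:**
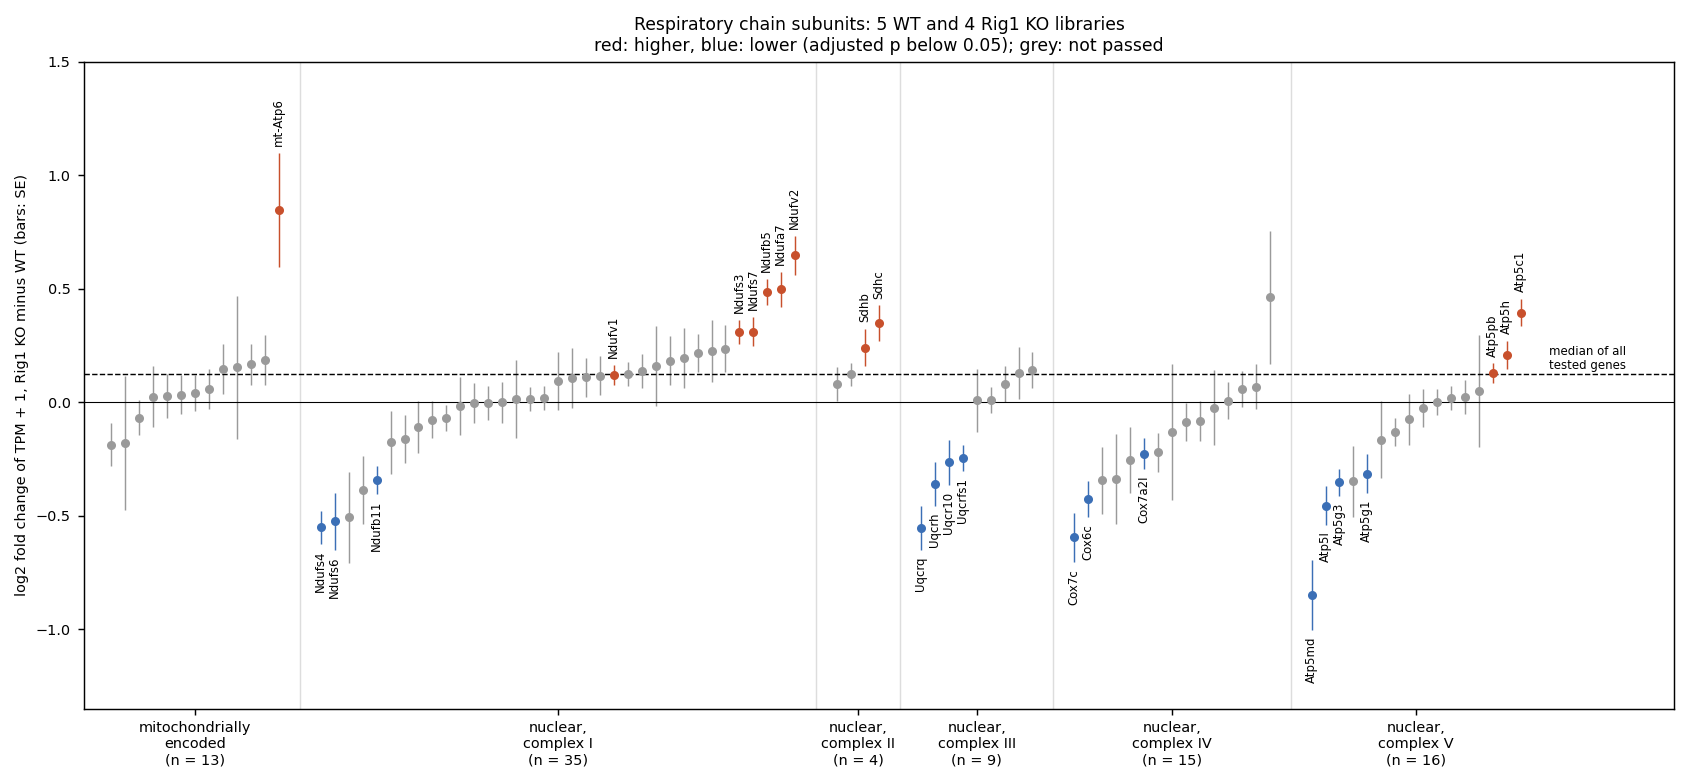
Log2 fold change of TPM + 1, Rig1 KO minus WT (vertical axis, bars are standard errors), of each of the 92 members tested, grouped by genome and complex (horizontal axis), over 5 WT and 4 Rig1 KO libraries. Red points passed as higher (12), blue points as lower (14), grey points did not pass, and the dashed line is the median of all tested genes (0.13).

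Promoter sequence was examined for the nuclear members, since binding sites for the factors NRF1, GABP and YY1 are known from some genes of this family. RefSeq promoters (GRCm38.p6) were matched for 67 of the 85 nuclear members, and the 250 bases before each start were searched on both strands. The NRF1-type motif GCGCANGCGC was found in 13 members (19.4%), against 4.23% of the 27025 genes with a promoter and 6.87% of the 14095 of these listed in the libraries. The ETS-type motif CCGGAAG, of the kind bound by GABP, was found in 12 members (17.9%), against 7.83% and 11.9%. The YY1-type motif AAGATGGCG was found in 1 member, Atp5j, and in 0.710% and 0.972% of those genes. Each motif was counted by itself, whether or not it overlapped another. Among members with a matched promoter, the NRF1-type motif was present in 2 of 10 higher members (Atp5c1 and Atp5h) and in 1 of 12 lower members (Ndufs6). Their upstream sequences show the same motif before genes whose transcripts moved in opposite directions. They are written 5′ to 3′ on the strand of the gene, with the NRF1-type match in capitals, and in Ndufs6 it reads on the opposite strand.
Atp5c1, chr2:10080433-10080682, minus strand: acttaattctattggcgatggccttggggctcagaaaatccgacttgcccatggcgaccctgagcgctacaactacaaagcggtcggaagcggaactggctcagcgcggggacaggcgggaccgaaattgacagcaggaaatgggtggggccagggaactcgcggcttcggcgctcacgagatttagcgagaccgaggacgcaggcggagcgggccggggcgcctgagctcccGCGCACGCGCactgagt
Atp5h, chr11:115419920-115420169, minus strand: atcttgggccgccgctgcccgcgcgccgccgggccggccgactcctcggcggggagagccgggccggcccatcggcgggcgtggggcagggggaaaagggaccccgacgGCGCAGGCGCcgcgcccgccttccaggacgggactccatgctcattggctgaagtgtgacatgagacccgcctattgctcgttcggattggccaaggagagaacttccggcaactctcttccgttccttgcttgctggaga
Ndufs6, chr13:73328483-73328732, minus strand: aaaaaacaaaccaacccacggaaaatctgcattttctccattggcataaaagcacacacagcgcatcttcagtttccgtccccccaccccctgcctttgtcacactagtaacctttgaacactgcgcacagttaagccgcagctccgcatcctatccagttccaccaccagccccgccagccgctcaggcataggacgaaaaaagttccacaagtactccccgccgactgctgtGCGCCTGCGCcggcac
The match ends 8 bases before the annotated start in Atp5c1, 7 bases before it in Ndufs6 and 132 bases before it in Atp5h. A match of letters is a description and shows no binding.

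In complex I, the largest of the complexes, 6 of 35 nuclear members tested were higher, 3 were lower and 26 did not pass, with a median log2 fold change of 0.093. The share called was 25.7%, below the 45.7% of all tested genes, of which 33.5% were higher and 12.2% lower. With median ratio scaling 4 were higher and 6 lower, against 23.7% and 21.4% of all genes. Without Rig1 KO 3 and 4 the counts were 10 and 3, against 20.5% and 13.1% of all genes. Without Rig1 KO 1 and 2 they were 7 and 9, against 36.3% and 9.38% of all genes. The 7 nuclear core subunits of complex I, which hold the flavin and the iron-sulfur clusters, gave 4 rises (Ndufv2, Ndufs7, Ndufs3 and Ndufv1) and no fall. The core median of 0.12 was about that of all tested genes, and with median ratio scaling 2 of the 7 (Ndufv2 and Ndufs3) were higher and none lower, with a median of 0.00071. The 28 accessory subunits gave 2 rises and 3 falls, with a median of 0.014.

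Ndufv2, an iron-sulfur subunit at the NADH-oxidising tip of complex I, had the largest rise of any nuclear member. It stood at 23.6, 26.8, 27.0, 27.6 and 22.2 TPM in WT 1 to 5 and at 37.9, 37.1, 46.7 and 40.2 TPM in Rig1 KO 1 to 4. Every Rig1 KO library was above every WT library, with a log2 fold change of 0.65 (SE 0.087, adjusted p = 0.00019). Leaving out Rig1 KO 3 and 4 gave 0.55 (adjusted p = 0.00388). Ndufv1, the neighbouring subunit that binds NADH and the flavin, also rose, with 105 ± 3.23 TPM in WT against 114 ± 2.87 TPM in Rig1 KO (mean ± SD, n = 5 and n = 4, as in all such pairs below). Its log2 fold change of 0.12 (SE 0.045, adjusted p = 0.048) did not pass without Rig1 KO 3 and 4 (adjusted p = 0.144) or with median ratio scaling, where it was -0.0027.

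Ndufs3 and Ndufs7 belong to the part of complex I that hands electrons to ubiquinone, and Ndufs7 carries the last iron-sulfur cluster of that path. Ndufs3 stood at 68.9, 74.1, 63.3, 67.6 and 68.0 TPM in WT 1 to 5 and at 86.1, 81.1, 87.1 and 85.5 TPM in Rig1 KO 1 to 4, with no overlap between the groups (log2 fold change 0.31, SE 0.054, adjusted p = 0.00102). Ndufs7 stood at 37.5 ± 1.80 TPM in WT and at 46.8 ± 3.63 TPM in Rig1 KO, also without overlap (log2 fold change 0.31, adjusted p = 0.00257). Both passed without Rig1 KO 3 and 4, at 0.29 and 0.34. With median ratio scaling Ndufs3 passed at 0.19 and Ndufs7 did not, at 0.19 (adjusted p = 0.0583). The core subunits Ndufs1 and Ndufs8 had log2 fold changes of 0.11 and -0.005 and did not pass.

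Among the accessory subunits of complex I, which surround the core and stabilise it, the rises were Ndufa7 and Ndufb5. Ndufb5, a subunit of the membrane arm, stood at 20.3, 22.6, 20.7, 21.9 and 23.3 TPM in WT 1 to 5 and at 30.8, 30.2, 31.1 and 31.3 TPM in Rig1 KO 1 to 4. The 4 Rig1 KO libraries lay close together and above all WT libraries (log2 fold change 0.49, SE 0.057, adjusted p = 7.42e-05). Ndufa7, a subunit of the peripheral arm, stood at 17.4 ± 0.969 TPM in WT against 25.1 ± 2.57 TPM in Rig1 KO without overlap (log2 fold change 0.50, adjusted p = 0.000481). Both passed without Rig1 KO 3 and 4, with log2 fold changes of 0.47 and 0.59.

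The accessory subunits that fell were Ndufs4, Ndufs6 and Ndufb11. Ndufs4, whose loss causes a mitochondrial encephalopathy in humans and mice, stood at 6.20, 5.92, 5.58, 6.08 and 6.09 TPM in WT 1 to 5 and at 3.53, 3.57, 3.85 and 4.11 TPM in Rig1 KO 1 to 4. Its fall was not larger in the libraries low in short transcripts, since the log2 fold change was -0.62 for Rig1 KO 1 and 2 against WT and -0.49 for Rig1 KO 3 and 4 (all 4 libraries -0.55, SE 0.073, adjusted p = 0.000169). Ndufs6, a zinc-binding subunit of the same arm, stood at 26.9, 23.5, 25.9, 24.2 and 25.7 TPM in WT 1 to 5 and at 22.2, 19.6, 14.3 and 14.1 TPM in Rig1 KO 1 to 4. All Rig1 KO libraries were below WT, Rig1 KO 3 and 4 most, and the log2 fold change of -0.52 (adjusted p = 0.00588) was -0.26 without those libraries (adjusted p = 0.0308). Ndufb11, of the membrane arm, went from 178 ± 9.03 TPM to 141 ± 10.3 TPM (log2 fold change -0.34, adjusted p = 0.00112). Ndufa2 and Ndufa1 had values of -0.51 and -0.39 that did not pass, and these were -0.10 and -0.10 without Rig1 KO 3 and 4.

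Of the 4 members of complex II, 2 were higher and none was lower, where 33.5% and 12.2% of all tested genes were. Succinate dehydrogenase consists of the flavoprotein Sdha, the iron-sulfur protein Sdhb and the membrane anchors Sdhc and Sdhd. Sdhc stood at 19.0, 19.2, 20.2, 17.9 and 16.8 TPM in WT 1 to 5 and at 21.7, 22.8, 27.2 and 24.4 TPM in Rig1 KO 1 to 4, without overlap (log2 fold change 0.35, SE 0.079, adjusted p = 0.00451). Without Rig1 KO 3 and 4 it was 0.25 (adjusted p = 0.0447). Sdhb stood at 41.2, 38.1, 38.0, 47.0 and 42.9 TPM in WT 1 to 5 and at 44.7, 47.3, 55.8 and 48.8 TPM in Rig1 KO 1 to 4. The groups overlapped, and its log2 fold change of 0.24 (adjusted p = 0.0334) did not pass without Rig1 KO 3 and 4 (0.15, adjusted p = 0.233) or with median ratio scaling (0.12). Sdha and Sdhd had log2 fold changes of 0.12 and 0.081 and did not pass. On exon-length TPM the WT levels were 292 ± 10.9 for Sdha, 211 ± 14.1 for Sdhd, 123 ± 10.002 for Sdhb and 49.5 ± 3.90 for Sdhc, so Sdhc was the lowest of the 4 subunits.

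In complex III, 4 of 9 nuclear members fell and none rose, where 12.2% and 33.5% of all tested genes did. With median ratio scaling 4 were again lower and none higher, against 21.4% and 23.7% of all genes. The 4 falls were those of the Rieske iron-sulfur protein Uqcrfs1, which takes the electron from ubiquinol, and of the small subunits Uqcrq, Uqcrh and Uqcr10. Uqcrq stood at 111, 104, 108, 113 and 115 TPM in WT 1 to 5 and at 83.0, 85.4, 58.9 and 73.8 TPM in Rig1 KO 1 to 4. All Rig1 KO libraries were below WT, with Rig1 KO 3 the lowest, giving a log2 fold change of -0.55 (SE 0.097, adjusted p = 0.00102), or -0.38 without Rig1 KO 3 and 4 (adjusted p = 0.00169). Uqcrfs1 stood at 102, 106, 94.4, 98.6 and 99.0 TPM in WT 1 to 5 and at 78.9, 88.4, 80.5 and 89.5 TPM in Rig1 KO 1 to 4, without overlap (log2 fold change -0.25, adjusted p = 0.00527). Its fall was -0.26 for Rig1 KO 1 and 2 and -0.23 for Rig1 KO 3 and 4.

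Uqcrh, the hinge protein that helps cytochrome c1 meet cytochrome c, had a log2 fold change of -0.36 (adjusted p = 0.0119) that was -0.17 without Rig1 KO 3 and 4 (adjusted p = 0.0999). Uqcr10 had -0.26 (adjusted p = 0.0488) and -0.09 without them (adjusted p = 0.478). Cytochrome c1 itself, Cyc1, measured 262 ± 32.2 TPM in WT against 275 ± 2.46 TPM in Rig1 KO, and the large structural subunits Uqcrc1 and Uqcrc2 had log2 fold changes of 0.14 and 0.011. None of these passed. Uqcrb and Uqcr11, small subunits too, did not pass over all libraries. Against WT, Rig1 KO 1 and 2 gave 0.36 for Uqcrb and 0.29 for Uqcr11, which passed as higher, and Rig1 KO 3 and 4 gave -0.11 and -0.27, which did not pass.

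In complex IV, cytochrome c oxidase, 3 of 15 nuclear members tested (20%) fell and none rose, where 12.2% and 33.5% of all tested genes did. With median ratio scaling 4 were lower and none higher, against 21.4% and 23.7% of all genes. The catalytic core of this complex is mitochondrially encoded, and its nuclear subunits surround that core. Cox7c stood at 310.1, 309.9, 305, 306 and 320.5 TPM in WT 1 to 5 and at 256, 227, 166 and 183 TPM in Rig1 KO 1 to 4. The WT libraries lay close together, all Rig1 KO libraries were below them and Rig1 KO 3 and 4 were lowest (log2 fold change -0.60, SE 0.11, adjusted p = 0.00133). Rig1 KO 1 and 2 alone gave -0.36 (adjusted p = 0.00274). Cox6c went from 42.0 ± 2.41 TPM to 31.1 ± 3.58 TPM without overlap (log2 fold change -0.43, adjusted p = 0.00152), and was -0.29 without those libraries (adjusted p = 0.0145). Cox7a2l, which tethers complexes III and IV into supercomplexes, had a log2 fold change of -0.23 (adjusted p = 0.0197) with overlapping groups and of -0.13 without them (adjusted p = 0.184).

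The spread of complex IV among the Rig1 KO libraries was wide. Its summed nuclear TPM was between 1814 and 2106 in WT, 1877 and 1803 in Rig1 KO 1 and 2, and 1233 and 1401 in Rig1 KO 3 and 4. Rig1 KO 3 and 4 were thus below every other library, and Rig1 KO 1 and 2 were at the lower part of the WT range or just below it. Cox6a1, the common form of a subunit that has a muscle form, stood at 369, 322, 317, 397 and 491 TPM in WT 1 to 5 and 406, 369.8, 210.0 and 244 TPM in Rig1 KO 1 to 4, and did not pass (log2 fold change -0.34, adjusted p = 0.189). Rig1 KO 3 and 4 were again the lowest libraries. Cox8a (-0.25), Cox5b (-0.34) and Cox4i1 (-0.22) did not pass over all libraries either. In Rig1 KO 1 and 2 against WT their log2 fold changes were 0.047, -0.021 and -0.087, and in Rig1 KO 3 and 4 against WT they were -0.56, -0.67 and -0.35. Cox6b1 and Cox7b passed as higher without Rig1 KO 3 and 4, at 0.26 and 0.20, and did not pass over all libraries.

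Tissue isoforms of complex IV subunits were at the low end of the chain. The common forms Cox4i1, Cox6a1, Cox7a2 and Cox8a stood at 386 ± 21.3, 664 ± 117, 98.6 ± 3.39 and 313 ± 29.8 exon-length TPM in WT. Cox7a1, the form known from heart and skeletal muscle, stood at 11.5 ± 1.77 exon-length TPM in WT, and Cox6b2, known from testis, at 8.39 ± 1.91, on 18 to 31 and 13 to 54 reads per library. Both were tested and did not pass, with log2 fold changes of -0.024 and -0.13. Cox4i2, Cox7b2, Cox8b, Cox8c and Ndufa4l2, and the symbol Ndufb11b in complex I, were below the filter and were not tested. Their recovered reads per library, which are lower bounds, ranged from 0 to 9. Ndufa4, now counted with complex IV, stood at 53.9 ± 4.52 TPM in WT against 54.2 ± 5.29 TPM in Rig1 KO (log2 fold change 0.0067) and did not pass.

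Complex V held the largest fall of the chain beside several rises. Of its 16 nuclear members, 3 were higher (Atp5c1, Atp5h and Atp5pb), 4 were lower (Atp5md, Atp5l, Atp5g3 and Atp5g1) and 9 did not pass. Over all tested genes 33.5% were higher and 12.2% lower. With median ratio scaling 1 of the 16 was higher and 6 were lower, against 23.7% and 21.4% of all genes. The catalytic F1 head is built from the alpha, beta, gamma, delta and epsilon subunits (Atp5a1, Atp5b, Atp5c1, Atp5d and Atp5e). Atp5c1, the rotating central stalk, stood at 51.9, 51.6, 53.1, 53.4 and 50.9 TPM in WT 1 to 5 and at 65.6, 63.0, 76.0 and 71.8 TPM in Rig1 KO 1 to 4. The WT libraries lay close together and every Rig1 KO library was above them (log2 fold change 0.39, SE 0.061, adjusted p = 0.000435). Rig1 KO 1 and 2 alone gave 0.30 (adjusted p = 0.00309). The catalytic subunit Atp5b had 884 ± 49.2 TPM in WT against 895 ± 29.4 TPM in Rig1 KO, and Atp5a1 had 660.4 ± 33.4 and 661 ± 33.4 TPM. Their log2 fold changes of 0.019 and 0.0011, and those of Atp5d (-0.13) and Atp5e (-0.35), did not pass. On exon-length TPM the WT levels fell from 709 ± 30.6 for Atp5a1 and 547 ± 27.3 for Atp5b to 247 ± 5.67 for Atp5c1, 159 ± 11.1 for Atp5d and 74.5 ± 10.8 for Atp5e.

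The c subunit, of which a ring in the membrane turns with the central stalk, is encoded by Atp5g1, Atp5g2 and Atp5g3, which yield the same mature protein. Atp5g3 stood at 253, 246, 219, 250.4 and 236 TPM in WT 1 to 5 and at 202, 181, 179 and 192 TPM in Rig1 KO 1 to 4, without overlap (log2 fold change -0.35, SE 0.059, adjusted p = 0.000785). The fall was -0.33 for Rig1 KO 1 and 2 and -0.37 for Rig1 KO 3 and 4. Atp5g1 went from 59.5 ± 4.04 TPM to 47.8 ± 5.97 TPM (log2 fold change -0.31, adjusted p = 0.0114) and did not pass without Rig1 KO 3 and 4 (-0.20, adjusted p = 0.117). Atp5g2, the highest of the 3 on exon-length TPM (158 ± 4.79 in WT, against 117 ± 7.17 for Atp5g3 and 30.4 ± 1.80 for Atp5g1), had a log2 fold change of -0.025 and did not pass.

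Atp5md, a small protein at the membrane face where ATP synthases pair into dimers, had the largest fall. It stood at 35.6, 33.7, 36.6, 31.8 and 34.9 TPM in WT 1 to 5 and at 22.0, 25.3, 16.6 and 13.1 TPM in Rig1 KO 1 to 4, all below WT (log2 fold change -0.85, SE 0.15, adjusted p = 0.00121). Without Rig1 KO 3 and 4 it was -0.53 (adjusted p = 0.00201). Atp5l, the g subunit of the same region, went from 74.4 ± 5.998 TPM to 54.1 ± 6.04 TPM without overlap (log2 fold change -0.46, adjusted p = 0.0014, and -0.33 without those libraries). Its neighbours Atp5k, Atp5j2 and Atp5mpl had log2 fold changes of 0.05, -0.076 and -0.17 and did not pass. The rises outside the head were in the peripheral stalk, which holds the head still. Atp5h had a log2 fold change of 0.21 (adjusted p = 0.0187) and Atp5pb one of 0.13 (adjusted p = 0.0345). With median ratio scaling these were 0.084 and 0.0044 and did not pass. Without Rig1 KO 3 and 4 Atp5h passed at 0.31 and Atp5pb did not, at 0.13 (adjusted p = 0.0676). With Rig1 KO 3 and 4 alone they were 0.11 (adjusted p = 0.144) and 0.12 (adjusted p = 0.0705).

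**Figure D3:**
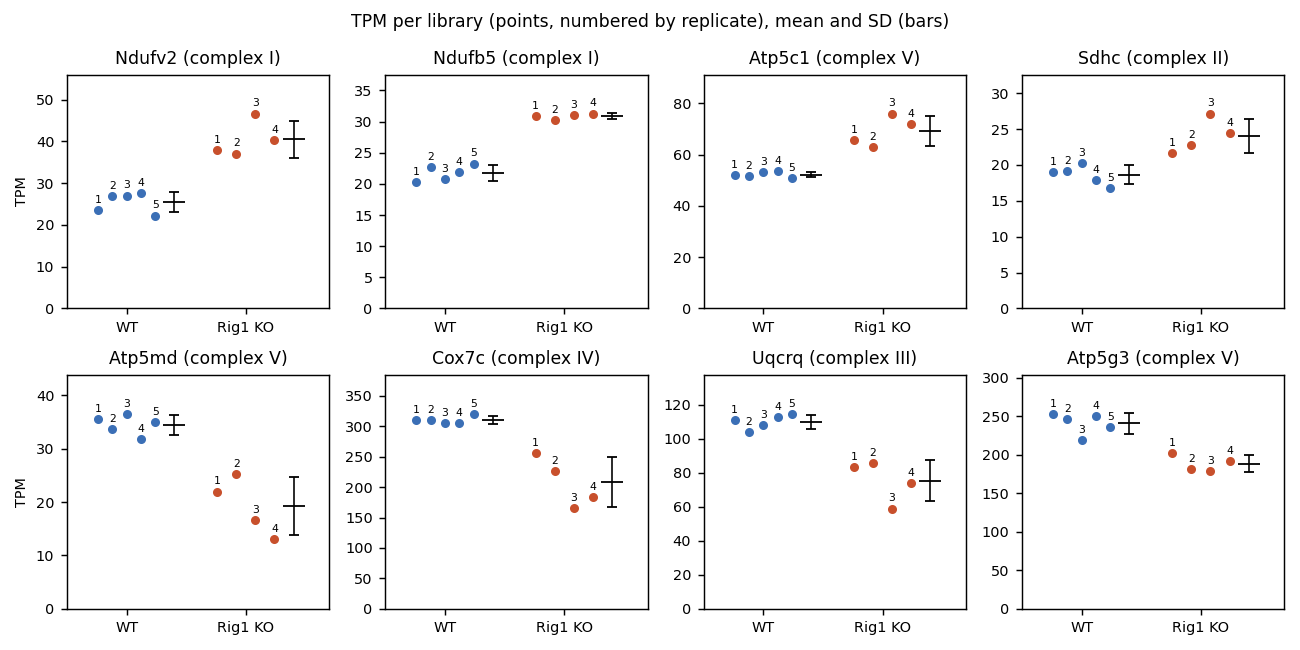
TPM (vertical axes, from 0) in each WT (blue) and Rig1 KO (red) library for 8 nuclear members, with replicate numbers beside the points and black bars for mean ± SD (n = 5 and n = 4). The groups do not overlap in any of the 8 panels, and Rig1 KO 3 is the lowest Rig1 KO library for Cox7c (166 TPM) and Uqcrq (58.9 TPM) and the highest for Ndufv2 (46.7 TPM).

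Values within the Rig1 KO group showed how each change was spread. Cox7c, Uqcrq, Atp5md and Ndufs6 were lower in Rig1 KO 3 and 4 than in Rig1 KO 1 and 2, whereas Ndufs4, Uqcrfs1 and Atp5g3 showed no such order. Among the rises, Ndufb5 lay between 30.2 and 31.3 TPM in the 4 libraries, Ndufs7 was highest in Rig1 KO 2, and Ndufv2, Atp5c1 and Sdhc were highest in Rig1 KO 3. In all, 9 nuclear members had every Rig1 KO library above every WT library and 11 had every Rig1 KO library below. Those were 9 and 11 of 79 tested, where 28% and 10.1% of all tested genes were so separated.

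**Figure D4:**
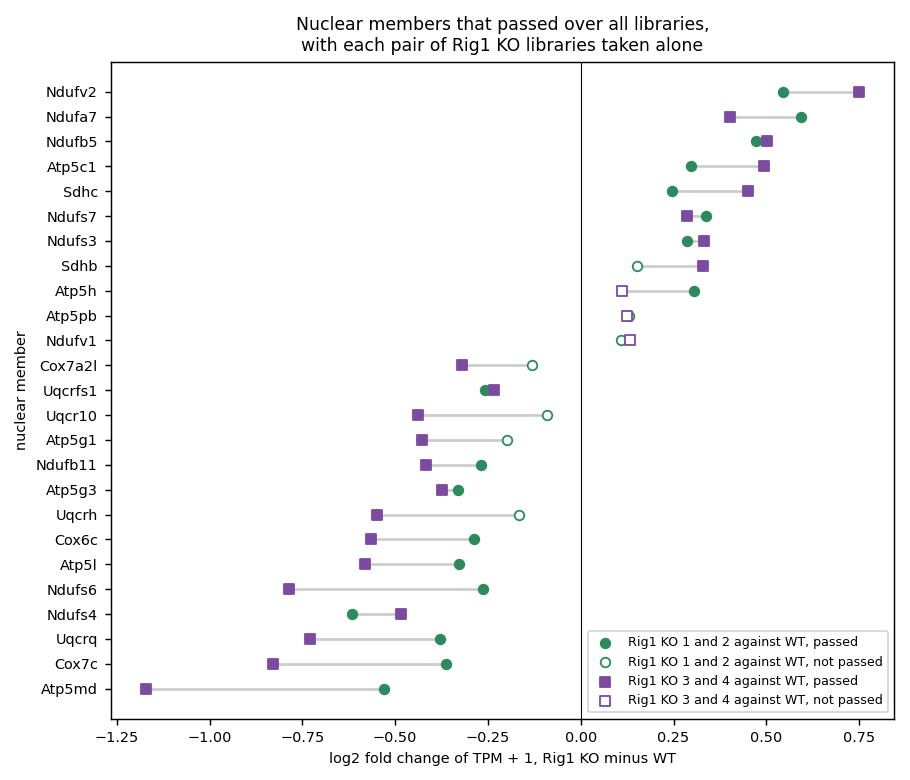
Log2 fold change of TPM + 1 against the same 5 WT libraries (horizontal axis) for Rig1 KO 1 and 2 (green circles) and Rig1 KO 3 and 4 (purple squares), for the 25 nuclear members that passed over all libraries (vertical axis). Filled symbols passed at an adjusted p below 0.05, and Atp5md has the widest gap, at -0.53 and -1.17.

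Of the 13 mitochondrially encoded members, 1 passed as higher, mt-Atp6, and 12 did not pass. Over all tested genes 33.5% were higher and 12.2% lower. The median log2 fold change of the 13 was 0.040, against 0.13 over all tested genes. The most abundant of the 13 were mt-Co1, the catalytic subunit of complex IV, and mt-Cytb, the cytochrome b of complex III. On exon-length TPM their WT levels were 29026 ± 1445 and 13218 ± 1067. In TPM as deposited, mt-Co1 stood at 78179.8, 79746, 80601, 82054 and 73112 in WT 1 to 5 and at 81041, 87708, 95194 and 90004 in Rig1 KO 1 to 4. The groups overlapped (log2 fold change 0.17, SE 0.091, adjusted p = 0.155). mt-Cytb had a log2 fold change of 0.034 (SE 0.084, adjusted p = 0.764).

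The complex I subunits mt-Nd1, mt-Nd2, mt-Nd4 and mt-Nd5, which form much of the proton-pumping membrane arm, had log2 fold changes of 0.026, 0.04, 0.057 and -0.069, with standard errors between 0.077 and 0.096. None of them passed. mt-Nd6, the 1 member encoded on the other strand of the mitochondrial genome, stood at 11864, 12297, 12131, 10666 and 9826 TPM in WT 1 to 5 and at 9528, 11499.7, 9459 and 9409 TPM in Rig1 KO 1 to 4. Rig1 KO 2 lay inside the WT range, the other Rig1 KO libraries lay below all WT libraries, and the log2 fold change of -0.19 (adjusted p = 0.127) did not pass. No source used here says whether the authors' counting used strand, and without strand mt-Nd6 cannot be told apart from antisense RNA.

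Values of several mitochondrial genes are uncertain because near-identical copies lie in the nuclear genome. Of the 75-base stretches of mt-Co3, mt-Atp6, mt-Co2, mt-Nd4l and mt-Nd3, 99.9%, 99.5%, 99.5%, 98.7% and 97.8% were also found in another annotated gene, an unprocessed pseudogene on chromosome 1 in each case. The aligned copies differed by 1 base in mt-Nd3 and by none in the other 4. These 5 genes stood between 53.3 ± 22.3 (mt-Nd3) and 565 ± 94.9 (mt-Co2) exon-length TPM in WT, whereas mt-Nd1, mt-Cytb and mt-Nd6, which share no such stretch, stood between 4189 ± 438 (mt-Nd6) and 13218 ± 1067 (mt-Cytb). mt-Atp8, for which no shared stretch was found either, stood at 56.6 ± 8.62, and its annotated length of 204 nt is the shortest. Only annotated genes were searched, so copies that lie outside them would be missed, and a lack of shared stretches does not show that no copy exists. mt-Nd4 and mt-Co1 shared 61.5% and 39.8% of their stretches and stood at 4351 ± 475 and 29026 ± 1445. Their values are uncertain in the shared part. No source used here says how reads that fit several places were counted. Called nuclear members shared fewer such stretches with other genes, most in Ndufs3 (28.2%), Cox7c (25.0%), Atp5h (18.9%), Ndufb5 (14.9%) and Cox7a2l (13.4%). Atp5md and Atp5pb had no sequence to compare. The first 75 bases of mt-Atp6 are shown because this gene gave the only mitochondrial call, and a read of this stretch fits its copy Gm10925 without a mismatch.
mt-Atp6: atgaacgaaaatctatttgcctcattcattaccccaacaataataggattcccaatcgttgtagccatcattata
mt-Atp6, the a subunit of ATP synthase through which protons pass, stood at 495, 814, 497, 599.9 and 494 TPM in WT 1 to 5 and at 648, 1012, 1764 and 943 TPM in Rig1 KO 1 to 4. The groups overlapped, and Rig1 KO 3 stood apart from the other Rig1 KO libraries. Its log2 fold change of 0.85 (SE 0.25, adjusted p = 0.0186) became 0.51 without Rig1 KO 3 and 4 and did not pass (adjusted p = 0.138). mt-Atp8, next to it in genome order, had a log2 fold change of -0.18 and did not pass (adjusted p = 0.639). In Rig1 KO 3, where mt-Atp6 was highest, mt-Atp8 stood at 68.7 TPM, its lowest value in any library. It rested on 18 to 84 recovered reads per library. The rise of mt-Atp6 is reported as uncertain.

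**Figure D5:**
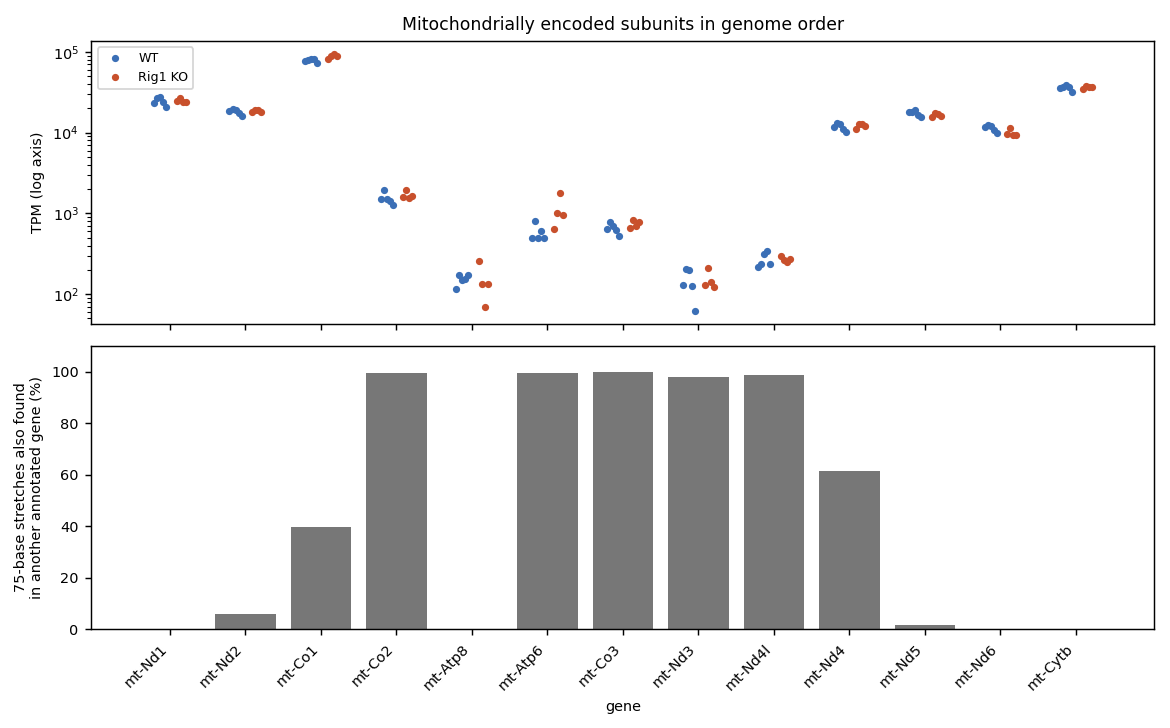
The 13 mitochondrially encoded members in genome order (horizontal axis), with TPM in each WT (blue) and Rig1 KO (red) library on a log axis (top) and the percentage of their 75-base stretches also found in another annotated gene (bottom). The 5 genes with at least 97.8% of stretches shared lie below all others except mt-Atp8 in every library, and mt-Atp6 is highest in Rig1 KO 3.

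The balance between the genomes overlapped between the genotypes. Mitochondrially encoded members took 2.38 ± 0.170% of recovered reads in WT and 2.40 ± 0.136% in Rig1 KO (SD, n = 5 and n = 4). Nuclear members took 0.484 ± 0.0082% in WT and 0.462 ± 0.037% in Rig1 KO, with 0.424% in Rig1 KO 3 and 0.437% in Rig1 KO 4 below every other library. The ratio of mitochondrial to nuclear exon-length TPM was 7.25, 7.93, 8.04, 7.35 and 6.36 in WT 1 to 5 and 6.99, 7.79, 8.90 and 8.29 in Rig1 KO 1 to 4. The groups overlapped, and Rig1 KO 3 and 4 were above all WT libraries while Rig1 KO 1 and 2 were within the WT range. In bulk RNA, fewer cells of a type and less RNA per cell cannot be told apart.

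The median log2 fold changes of nuclear and mitochondrial members were both below that of all tested genes. They were 0.0067 for nuclear and 0.040 for mitochondrially encoded members, against 0.13 for all genes. By complex, the nuclear medians were 0.093 for I, 0.18 for II (the 1 complex above all genes), 0.0087 for III, -0.13 for IV and -0.050 for V. Without Rig1 KO 3 and 4 they were 0.11, 0.15, -0.027, 0.047 and 0.027, against 0.069 for all genes. The medians of complexes IV and V were thus negative only where those libraries were included. With Rig1 KO 3 and 4 alone the medians of complexes I to V were -0.011, 0.25, -0.23, -0.32 and -0.24, against 0.19 for all genes.

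Genes that build and supply the chain were examined in 8 lists of genes outside it. Their counts are to be read against all tested genes, of which 33.5% were higher and 12.2% lower, or 23.7% and 21.4% with median ratio scaling and 20.5% and 13.1% without Rig1 KO 3 and 4. Of 17 tested genes for replication and transcription of mitochondrial DNA, 12 were higher, 1 was lower and 4 did not pass, with a median log2 fold change of 0.27, and both with median ratio scaling and without Rig1 KO 3 and 4 the counts were 6 higher and 1 lower. Mterf1a, which binds mitochondrial DNA and ends transcription, went from 11.9 ± 2.81 TPM to 33.2 ± 4.96 TPM (log2 fold change 1.43, adjusted p = 8.3e-05). Tefm, the elongation factor of the mitochondrial RNA polymerase, went from 7.69 ± 1.36 TPM to 17.04 ± 2.97 TPM (log2 fold change 1.05). The 1 fall was Polg2, the accessory subunit of the mitochondrial DNA polymerase, from 62.3 ± 3.22 TPM to 25.0 ± 1.67 TPM (log2 fold change -1.28, adjusted p = 1.3e-07), with no overlap. Of 21 genes for processing and stability of mitochondrial RNA, 7 were higher and 2, Tbrg4 (-0.18) and Mtpap (-0.27), were lower, and the largest rise was that of Fastkd3 (log2 fold change 0.96). With median ratio scaling 5 of these genes were higher and 5 lower, and without Rig1 KO 3 and 4 the counts were 6 and 3.

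Among the assembly factors, which put the complexes together, several rises were larger than that of any nuclear subunit. Of 13 complex I factors tested, 4 were higher, and the largest rises were Tmem126b, from 9.39 ± 0.874 TPM to 33.3 ± 6.28 TPM (log2 fold change 1.71, adjusted p = 1.53e-06), and Tmem186, from 41.1 ± 2.97 TPM to 103 ± 11.1 TPM (log2 fold change 1.30, adjusted p = 8.48e-07). Both proteins belong to the complex that assembles the membrane arm. Ndufaf1 of the same complex (0.57) and Ndufaf4 (0.46) also rose, and Acad9, another member of that complex, fell (-0.29). The 4 rises are 30.8% of the list, near the share of all genes, and the 5 calls held with median ratio scaling and without Rig1 KO 3 and 4. Of 9 factors for complexes II and III, Lyrm7 (0.55), Sdhaf4 (0.55), Sdhaf2 (0.48) and Bcs1l (0.33) rose and Uqcc2 (-0.56) and Sdhaf1 (-0.47) fell. Sdhaf4 did not pass with median ratio scaling, nor Bcs1l without Rig1 KO 3 and 4. Lyrm7 and Bcs1l deliver the Rieske protein Uqcrfs1 into complex III.

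Of 22 complex IV factors, 8 were higher and 4, Higd1a (-0.71), Cox11 (-0.61), Sco1 (-0.43) and Cox18 (-0.19), were lower, and the counts were 6 and 5 with median ratio scaling and 6 and 4 without Rig1 KO 3 and 4. Cox11 and Sco1 place copper in the catalytic core. Tmem177, which acts in building mt-Co2, had the largest rise (1.60, from 3.80 ± 1.30 TPM to 13.7 ± 4.90 TPM). Of 5 complex V factors, Tmem70 (0.58), Atpaf1 (0.45) and Atpaf2 (0.38) rose, which serve the c ring and the F1 head. Of 14 genes for the mobile carriers, cytochrome c and ubiquinone, Coq2 (0.72), Coq5 (0.37), Coq9 (0.34) and Coq10a (0.30) rose, and Coq10b (-1.25) and Hccs (-0.38) fell. Coq10b went from 21.1 ± 1.77 TPM to 8.29 ± 0.744 TPM without overlap. Coq10a did not pass with median ratio scaling or without Rig1 KO 3 and 4, and the list's counts with that scaling were 3 higher and 4 lower. Of 12 nuclear regulators, Gabpb2 (0.55), Gabpa (0.38) and Esrra (0.29) rose, and Ppargc1b (-0.34), Gabpb1 (-0.22) and Myc (-0.19) fell. Esrra did not pass with median ratio scaling or without Rig1 KO 3 and 4, and the counts were then 2 higher with 5 lower and 2 higher with 4 lower.

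Markers of several other cell types differed between the genotypes, as did those of CD8 T cells, of which all 6 were higher. The 7 measured B cell markers summed to between 154 and 1065 TPM in WT and between 89.9 and 185 TPM in Rig1 KO, and 5 of the 6 tested were lower. The 5 natural killer markers summed to 141 to 176 TPM in WT against 340 to 395 TPM in Rig1 KO, and the 5 basophil and mast cell markers to 11.7 to 46.3 TPM and 207 to 404 TPM, with all 5 of each list higher. The 4 measured platelet markers summed to 180 to 242 TPM in WT against 31.2 to 39.3 TPM in Rig1 KO, and all 4 were lower. Of the red cell markers 3 of 4 tested were higher, of the neutrophil markers 2 of 5 were lower, and of the CD4 T cell markers 1 of 2 was lower. None of the 6 macrophage and monocyte markers passed, and their sums overlapped (WT 523 to 1323 TPM, Rig1 KO 983 to 1196 TPM). No measured marker was at 0 in all libraries. With the mean of the B cell markers as a covariate, 9 members were higher and 10 lower, where 22.6% and 6.2% of all genes were. The part of the other cell types in the members' values was not tested.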

How the data were processed

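Poly(A) RNA was sequenced in 9 libraries, 5 WT and 4 Rig1 KO, grouped by their titles. The authors deposited TPM, per the file headers. The submitters' processing notes name fastp, featureCounts and the build mm39 (GRCm39) without versions. They give no aligner, annotation or strand setting, and neither do the labels.

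The digits of the TPM values allowed the reads behind them to be recovered for 100% of genes (tolerance 2e-12). They were recovered as the smallest whole numbers in the ratios of each gene's values across libraries. Where all reads of a gene share a divisor, which is likeliest at few reads, the true counts are a multiple. Read numbers and totals given here are therefore lower bounds. The implied gene lengths equalled the genomic span, with introns, to within 1% in 99.1% of 11848 genes, and the exon length in 1.65%. Transcript lengths and sequences came from GENCODE and RefSeq tables of GRCm38, an older build than the authors', and 80 of the 85 nuclear members had a length.

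Testing used limma 3.58.1 (R 4.3.3) on log2(TPM + 1), with a mean-variance trend, two-sided, with Benjamini-Hochberg adjustment over 10540 genes at 0.05. Genes entered with a TPM of 1 or more in 4 or more libraries. Fold changes on this scale understate those of low genes. On data simulated for this comparison with 10540 genes, 59% of genes changed by 0.5 on the log2 scale were recovered. Of those changed by 1, 94% were recovered, and there were 6 false calls. All simulated libraries had independent noise with the spread of WT, and a small part of the genes was changed. The wider spread of some genes in Rig1 KO and the shared offset of Rig1 KO 3 and 4 were not simulated. The rates therefore may not hold for the real libraries. Figures used matplotlib 3.10.9.

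The genes described are, by rule, the knocked-out gene, all mitochondrial members, the 4 nuclear members of each complex with the smallest p, the 5 largest rises and falls, tissue isoforms, and up to 4 genes of each further list. The other members and list genes named were chosen after their values were seen, as were the 3 promoters. Members and lists were chosen with earlier results of these data known. Other pseudocounts, filters, scalings, lengths, weights and covariates were tried, and libraries were left out.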

Additional observations from a re-analysis of the deposited data

Results flagged for a closer look

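Within groups, 2 of 82 groups of library values tested held a library far from the rest, where chance flags about 1 in 20 groups. Cox6c stood at 37.8 TPM in WT 5 and between 42.2 and 43.7 TPM in the other WT libraries. This library is still above the highest Rig1 KO value of 34.4 TPM. mt-Nd6 stood at 11500 TPM in Rig1 KO 2 and between 9409 and 9528 TPM in the other Rig1 KO libraries. Without Rig1 KO 2 the log2 fold change of mt-Nd6 was -0.26 and passed (adjusted p = 0.0431), whereas over all libraries it was -0.19 and did not pass (adjusted p = 0.127).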

How the results depend on the processing

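Of 27 alternatives, 24 were chosen at the outset and 3, namely leaving out Rig1 KO 3 and 4, leaving out Rig1 KO 1 and 2 and a covariate for short transcripts, were added after seeing the data. Over the 41 tested members named by rule, 1041 of 1105 recomputed calls were unchanged, 43 were lost, 21 were gained and none became a call in the opposite direction. A sign change between values called in neither fit was counted as unchanged (92 cases). Members named by rule and called under every alternative were Atp5c1, Ndufa7, Ndufb5, Ndufv2, Atp5g3, Atp5l, Cox6c, Cox7c, Ndufs6 and Uqcrq. Over the 32 list genes named by rule, 854 of 862 recomputed calls were unchanged and 8 were lost, and 25 of the 31 called genes were called under every alternative. Counts over 1.5 times apart from the reported ones were as follows. Members higher were 7 with median ratio scaling, and members lower were 29 without Rig1 KO 1 and 2. Nuclear members higher were 6 with median ratio scaling, 7 with equal totals of recovered reads, 17 without Rig1 KO 3 and 4 and 18 with the short-transcript covariate, and nuclear members lower were 29 without Rig1 KO 1 and 2. Mitochondrial members higher were 3 with quantile scaling and 0 with array weights, without WT 4 and 5, without Rig1 KO 3 and 4 and with the short-transcript covariate. Mitochondrial members lower were 1 (mt-Nd6) without WT 4 and 5, and from 0 to 1 when single libraries were left out. The median log2 fold change minus that of all genes moved by more than the spread between libraries in these cases. With the B cell covariate it was -0.25 for nuclear members, -0.30 for mitochondrial members, -0.21 for complex I and -0.34 for complex V. Without Rig1 KO 1 and 2 it was -0.31 for nuclear members, -0.20 for complex I, -0.42 for III, -0.51 for IV and -0.43 for V. Without a filter it was 0.16 for complex II and -0.076 for IV, and for IV it was -0.022 without Rig1 KO 3 and 4 and -0.068 with the short-transcript covariate. Beyond fewer genes or libraries tested, the cause was not tested. Same-numbered WT and Rig1 KO libraries did not deviate together (r of 0.097, -0.06, -0.1 and -0.072), so the values gave no sign of pairing by number. So few correlations, taken on deviations from each group's mean, cannot exclude a pairing. With the replicate number as a block, 10 nuclear members were higher and 14 lower, and 1 mitochondrial member was higher and 1 lower. The count of 9 libraries limits which small changes could be called.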
